A study of Homo sapiens with 3 samples.

Results

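The nuclear genes for the subunits of oxidative phosphorylation were examined for chromatin peaks of VCP and of its Flag tag in the human colorectal cancer line HCT116. Membership was decided by gene symbol alone, and the set was chosen with earlier results of these data known. Protein-coding genes entered when their symbol began with NDUFA, NDUFB, NDUFC, NDUFS or NDUFV plus a number, with UQCR, with COX4 to COX8 or with ATP5, or was SDHA to SDHD or CYC1. This gave 88 of 19866 protein-coding genes, with 37 in complex I, 4 in complex II, 10 in complex III, 17 in complex IV and 20 in complex V. Complexes were assigned by symbol too, so members such as ATP5IF1 and COX7A2L need not be structural subunits. They include 2 readthrough loci, NDUFC2-KCTD14 and ATP5MF-PTCD1, whose transcripts join neighbouring genes.

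Oxidative phosphorylation is carried out in the inner membrane of the mitochondrion. Complexes I to IV pass electrons from NADH and succinate to oxygen, complexes I, III and IV pump protons, and complex V, the ATP synthase, uses the proton gradient to make ATP. Most of the subunits are encoded in the nucleus, and the factors NRF1, GABP (an ETS family factor) and YY1 are known to bind promoters of many of these genes. VCP is an ATPase that pulls ubiquitin-tagged proteins out of complexes and membranes.

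The cells expressed Flag-tagged VCP, and chromatin cut with micrococcal nuclease was pulled down with antibodies to VCP and, separately, to Flag. A library of input chromatin was the third sample. Each was 1 library from the same kind of cells, so nothing below has a replicate check and no test between conditions was possible. The labels do not state the promoter or level of the transgene, and a Flag precipitation from cells without the tag was not analysed here.

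There were 1816 VCP peaks and 5719 Flag peaks. No peak had a -log10 p under 3, so peaks were listed on the unadjusted p, and the q of the median peak was 0.416 for VCP and 0.106 for Flag. Summits of the median peak held 10 reads for VCP and 11 for Flag. All coordinates are 1-based on hg38. Neither list held a peak on the mitochondrial chromosome, which carries the subunit genes that are not nuclear.

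A gene counted as marked when a summit lay within 1 kb of either of its ends. Of the 88 genes, 7 had a VCP summit (7.95%, exact Clopper-Pearson 95% interval 3.26 to 15.7), where 2.34% of all protein-coding genes had one. A Flag summit was present at 22 (25%, 16.4 to 35.4), where 11.7% of all protein-coding genes had one. Summits of both lists were present at 5 genes (5.68%, 1.87 to 12.8), against 0.987% of all protein-coding genes. These 5 were 71.4% of the genes with a VCP summit and 22.7% of those with a Flag summit. Over all protein-coding genes these shares were 42.2% and 8.4%. Neither list marked the other 64 genes. All intervals given cover counting error only, and genes that share a peak are not independent.

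Every VCP peak at these genes was weak. Their q values ran from 0.0747 to 0.882, so 0 of the 7 reached a q of 0.05. Over all protein-coding genes 0.272% had a VCP summit at that threshold. Summits of both lists at that threshold were left at 0 of the 88 genes, beside 0.111% of all. In the Flag list 12 of the 88 genes kept a summit at that threshold (13.6%), beside 5.53% of all protein-coding genes. At -log10 q of at least 3 there were 7 genes with a Flag summit (7.95%), beside 2.37% of all protein-coding genes. At that threshold 0 genes had a VCP summit, beside 0.0554%, and 0 had both, beside 0.0101%.

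**Figure D1:**
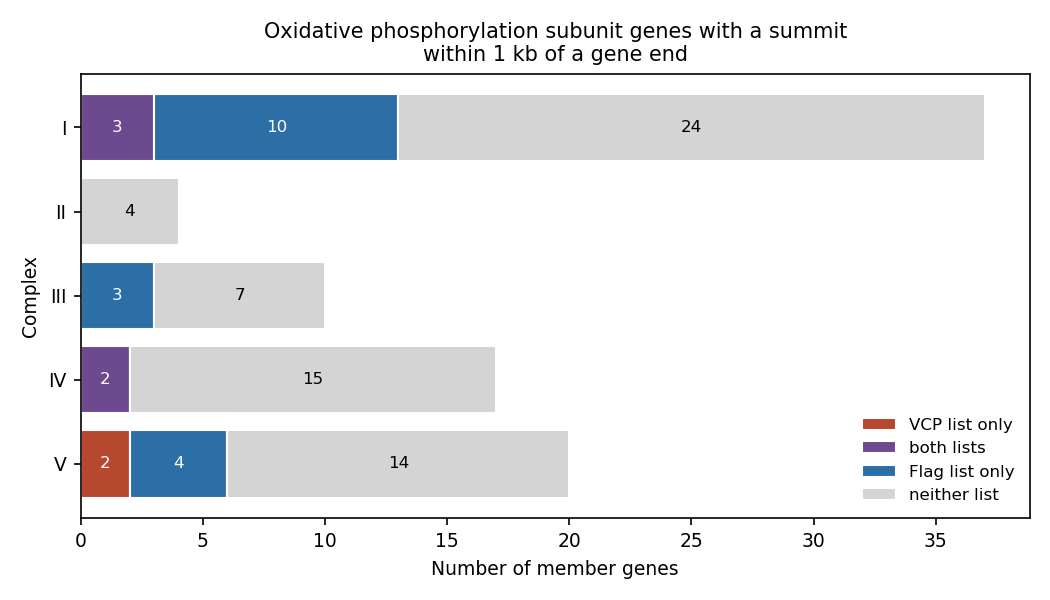
Horizontal bars count the subunit genes of each complex with a summit within 1 kb of a gene end in the VCP list only, both lists, the Flag list only or neither. Complex I holds 3 genes in both lists and 10 in the Flag list only, complex II holds none in either list, and 2 genes of complex V are the ones in the VCP list only.

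The 5 genes marked by both lists belong to complexes I and IV. NDUFS7, NDUFA12 and NDUFB4 encode complex I subunits, and COX5A and COX8A encode complex IV subunits. At 4 of them the VCP peak overlapped the Flag peak, and at COX5A it did not.

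NDUFB4 encodes an accessory subunit in the membrane arm of complex I. Its VCP peak spanned 120596392 to 120596595 on chromosome 3, enriched 3.50 times over its background (-log10 q 0.389), with 10 reads at the summit (exact Poisson 95% interval 4.80 to 18.4). The Flag peak spanned 120596387 to 120596700, enriched 2.75 times (-log10 q 0.212), with 8 reads (3.45 to 15.8). The summits lay 16 bp apart, at 170 bp (VCP) and 186 bp (Flag) downstream of the start. This was the closest pair of summits among these genes, and the Flag peak was the weakest of the set by fold enrichment.

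NDUFA12 encodes another accessory subunit of complex I. Its VCP summit lay 77 bp and its Flag summit 42 bp downstream of the start, 35 bp apart on chromosome 12. The VCP peak rested on 7 reads (2.81 to 14.4) with a fold enrichment of 2.92, and the Flag peak on 9 reads (4.12 to 17.1) with a fold enrichment of 3.51. Its VCP -log10 q of 0.0545 was at the lowest value of the whole VCP list.

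NDUFS7 encodes a core subunit that carries an iron-sulfur cluster near the quinone site. On chromosome 19 its VCP peak spanned 1383759 to 1384118 (fold enrichment 3.09, 14 reads, 7.65 to 23.5) and its Flag peak 1383690 to 1384104 (fold enrichment 2.85, 14 reads). The VCP summit lay 62 bp downstream and the Flag summit 126 bp upstream of the start. The local background was high at this gene in both lists, 3.85 reads for VCP and 4.27 for Flag, where the lowest backgrounds were 1.74 and 1.85. The tRNA genes TRN-GTT2-6 and TRF-GAA1-6 have an end within 1 kb of these summits, so the peaks cannot be given to NDUFS7 alone.

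COX8A encodes the widely expressed form of a small complex IV subunit. Its VCP peak had a fold enrichment of 3.28 and 8 reads (3.45 to 15.8), and its Flag peak 4.21 and 11 reads (5.49 to 19.7). The summits lay 299 bp apart on chromosome 11, at 356 bp (VCP) and 57 bp (Flag) downstream of the start, although the peaks overlapped.

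COX5A encodes a structural subunit of complex IV on its matrix side. In the VCP list its peak was 436 bp upstream of the start (fold enrichment 2.87, 8 reads, -log10 q 0.0607), and in the Flag list 110 bp upstream (fold enrichment 5.27, 14 reads, 7.65 to 23.5, -log10 q 3.90). The summits were 326 bp apart and the peaks did not touch. Of the 5 genes it had the highest Flag fold enrichment and the lowest VCP one.

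The promoter windows of these 5 genes are printed here because both antibodies marked them, together with those of the genes with the highest -log10 q in the VCP list (ATP5PB) and the Flag list (ATP5MJ). ATP5PF was added after its values were seen. Each runs 5′ to 3′ from 250 bases before to 50 after an annotated start, from RefSeq on GRCh38.p14, and where a gene has several starts the one nearest to the summit is shown. Capitals mark exact matches, on either strand, of GCATGCGC (NRF1), CCGGAAG (ETS family), AAGATGGC (YY1), GGGCGG (SP family) and CCAAT (NF-Y).
NDUFB4, chr3:120596086-120596385, plus strand: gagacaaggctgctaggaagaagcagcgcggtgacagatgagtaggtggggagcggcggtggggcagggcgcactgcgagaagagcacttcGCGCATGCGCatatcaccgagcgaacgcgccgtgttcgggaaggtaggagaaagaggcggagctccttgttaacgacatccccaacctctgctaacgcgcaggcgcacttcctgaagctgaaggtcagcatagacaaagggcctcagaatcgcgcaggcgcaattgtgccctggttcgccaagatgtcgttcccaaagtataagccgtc
NDUFA12, chr12:95003648-95003947, minus strand: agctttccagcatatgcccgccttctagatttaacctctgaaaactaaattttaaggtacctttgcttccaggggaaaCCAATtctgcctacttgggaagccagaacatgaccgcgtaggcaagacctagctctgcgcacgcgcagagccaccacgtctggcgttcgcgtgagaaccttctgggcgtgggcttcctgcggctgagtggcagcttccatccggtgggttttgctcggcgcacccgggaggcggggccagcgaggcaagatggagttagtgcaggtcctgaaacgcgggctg
NDUFS7, chr19:1383657-1383956, plus strand: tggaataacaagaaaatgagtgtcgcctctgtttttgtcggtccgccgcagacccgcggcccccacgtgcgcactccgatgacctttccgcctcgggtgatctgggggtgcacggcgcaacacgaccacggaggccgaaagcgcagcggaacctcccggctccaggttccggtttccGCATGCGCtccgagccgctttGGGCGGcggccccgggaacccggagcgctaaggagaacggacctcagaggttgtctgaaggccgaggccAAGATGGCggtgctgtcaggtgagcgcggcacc
COX8A, chr11:63974370-63974669, plus strand: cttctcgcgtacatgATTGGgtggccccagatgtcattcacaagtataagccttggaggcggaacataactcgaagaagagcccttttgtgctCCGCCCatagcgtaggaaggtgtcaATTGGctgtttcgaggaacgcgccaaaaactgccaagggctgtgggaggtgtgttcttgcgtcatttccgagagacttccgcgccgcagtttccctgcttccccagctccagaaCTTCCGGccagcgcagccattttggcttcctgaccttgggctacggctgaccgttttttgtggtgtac
COX5A, chr15:74938024-74938323, minus strand: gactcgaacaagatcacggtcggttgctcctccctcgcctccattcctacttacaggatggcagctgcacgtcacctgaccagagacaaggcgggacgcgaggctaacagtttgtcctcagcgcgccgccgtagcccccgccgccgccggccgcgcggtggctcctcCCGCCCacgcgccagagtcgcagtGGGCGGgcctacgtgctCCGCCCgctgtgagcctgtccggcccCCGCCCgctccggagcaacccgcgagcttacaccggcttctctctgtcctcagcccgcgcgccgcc
ATP5PB, chr1:111449214-111449513, plus strand: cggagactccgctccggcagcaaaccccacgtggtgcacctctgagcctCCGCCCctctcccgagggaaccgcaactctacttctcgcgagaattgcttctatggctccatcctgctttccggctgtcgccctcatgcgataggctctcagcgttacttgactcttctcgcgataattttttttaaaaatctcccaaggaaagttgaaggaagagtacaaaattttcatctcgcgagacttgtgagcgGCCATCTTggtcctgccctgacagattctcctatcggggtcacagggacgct
ATP5MJ, chr14:103921480-103921779, minus strand: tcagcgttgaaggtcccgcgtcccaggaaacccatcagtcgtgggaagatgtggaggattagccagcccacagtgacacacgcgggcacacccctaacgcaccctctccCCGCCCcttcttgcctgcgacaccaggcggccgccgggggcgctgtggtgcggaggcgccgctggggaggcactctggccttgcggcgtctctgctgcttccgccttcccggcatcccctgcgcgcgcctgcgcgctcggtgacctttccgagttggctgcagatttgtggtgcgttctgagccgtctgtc
ATP5PF, chr21:25734855-25735154, minus strand: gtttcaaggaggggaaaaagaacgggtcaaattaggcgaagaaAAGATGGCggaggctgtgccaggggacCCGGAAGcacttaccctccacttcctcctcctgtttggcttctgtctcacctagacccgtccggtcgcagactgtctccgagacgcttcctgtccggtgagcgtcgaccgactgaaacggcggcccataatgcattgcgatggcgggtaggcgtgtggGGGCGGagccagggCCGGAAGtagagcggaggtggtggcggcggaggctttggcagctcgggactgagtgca

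Positions in these windows are counted from 0 at the start, negative upstream. In NDUFB4 the NRF1 letters match on both strands and overlap, from -159 to -150, and the VCP and Flag summits lie outside the window on its downstream side. NDUFS7 holds an NRF1 match at -73 to -66 and a YY1 match at 17 to 24, both between its Flag summit at -126 and its VCP summit at 62. COX8A holds an ETS match at -18 to -12, upstream of its Flag summit at 57. COX5A has 4 SP matches from -83 to -11 and none of the NRF1, ETS or YY1 letters. ATP5PB has a YY1 match at -2 to 5, and the ATP5MJ and NDUFA12 windows hold 1 match each, of the SP and NF-Y letters. A match is a description of letters, and binding of these factors was not measured.

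**Figure D2:**
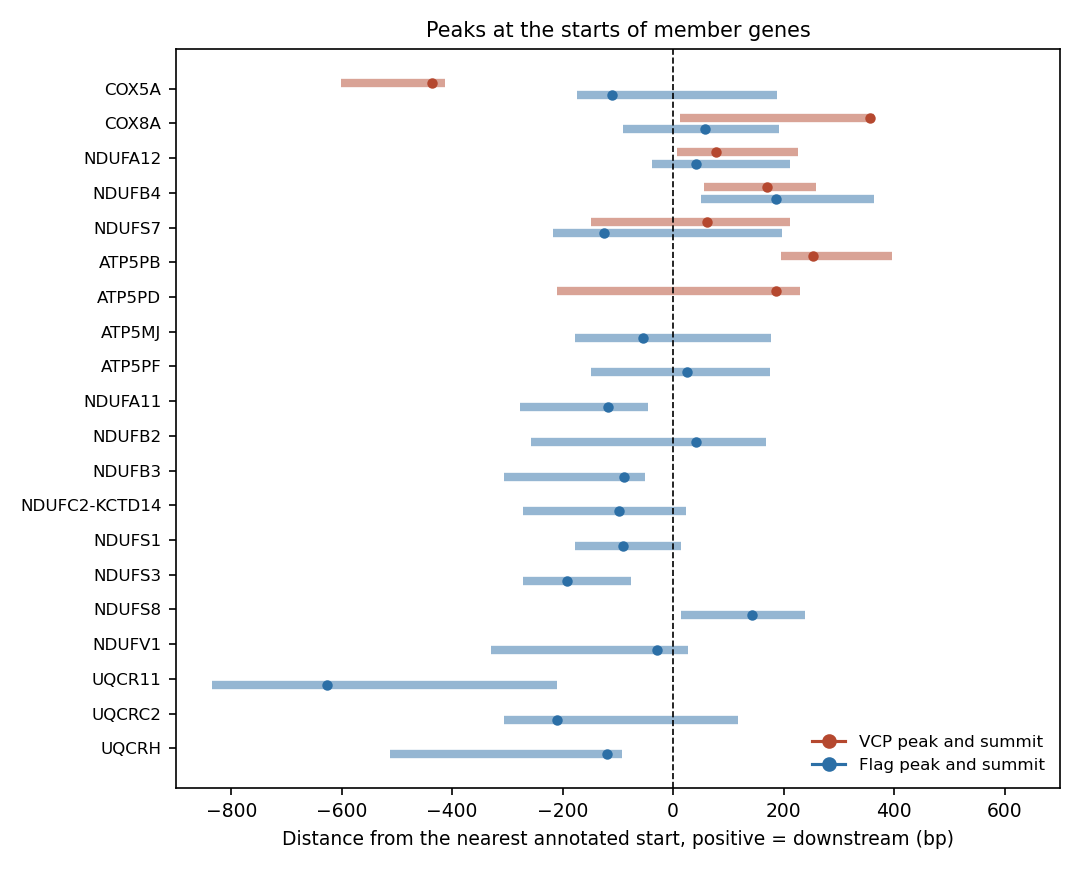
Bars show the extent and points the summit of each peak at the start of a subunit gene, as the distance in bp from the nearest annotated start, coloured by antibody. The 5 genes at the top have peaks of both lists, which overlap at NDUFA12, NDUFB4, NDUFS7 and COX8A and lie apart at COX5A.

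Complex I, which has the most genes in the set, also had the most marked genes by count. It had a VCP summit at 3 of 37 genes (8.11%) and a Flag summit at 13 (35.1%), beside 2.34% and 11.7% of all protein-coding genes. The nuclear-encoded catalytic core, which binds NADH and carries the iron-sulfur chain, has 7 subunits, and 1 of these genes had a VCP summit and 5 a Flag summit. The other 30 complex I genes had a VCP summit at 2 and a Flag summit at 8. This division was made after the values were seen, so it is given as counts only.

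Among the core genes in the Flag list, NDUFS8, which encodes an iron-sulfur subunit, had the highest fold enrichment. Its peak on chromosome 11 had a value of 4.92 with 13 reads (6.92 to 22.2, -log10 q 3.18), 143 bp downstream of the start. An end of the noncoding gene GLTC1 also lay within 1 kb of that summit. NDUFS1, the gene of the largest core subunit, had 4.04 with 11 reads, 91 bp upstream of its nearest annotated start. Its peak was also within 309 bp of EEF1B2, a translation elongation factor gene. NDUFV1, which encodes the NADH-binding subunit, had 3.49 with 12 reads, 30 bp upstream. An end of the noncoding gene NDUFV1-DT lay within 1 kb of that summit. NDUFS3 had 3.16 with 8 reads (3.45 to 15.8). That summit was nearer to an end of its neighbour KBTBD4 (88 bp, start or transcript end not told apart) than to the NDUFS3 start (192 bp). Among the core genes with a Flag summit, NDUFS8 and NDUFS1 thus had a q under 0.05, and NDUFV1 (q = 0.0533), NDUFS3 (0.348) and NDUFS7 (0.159) did not. NDUFV2 had no peak within 1 kb in either list.

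Of the accessory genes of complex I, NDUFA11, which encodes a membrane-arm subunit, was the strongest in the Flag list. It was enriched 5.89 times, with 16 reads (9.15 to 26.0, -log10 q 5.37), 118 bp upstream of its start on chromosome 19, and 97.2% of the Flag peaks at ends of protein-coding genes had a lower fold enrichment. The same peak lay 964 bp from an end of VMAC, start or transcript end not told apart. NDUFB2 followed with 4.41 and 15 reads (8.4 to 24.7), 41 bp downstream of its start and within 1 kb of an end of its antisense gene NDUFB2-AS1. NDUFB3 had 4.05 and 15 reads, 89 bp upstream and 241 bp from HYCC2. NDUFC2 had 3.86 and 10 reads (4.80 to 18.4), and its peak is counted again for the readthrough locus NDUFC2-KCTD14, which shares that end. These subunits all sit in the membrane arm. The NDUFB10 peak differed in where it lay along the gene. Its Flag summit (fold enrichment 3.6, 15 reads) lay 945 bp inside the gene from the transcript end and 1492 bp downstream of the start.

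Complex II, which oxidises succinate, had no marked gene. SDHA, SDHB, SDHC and SDHD lacked a summit within 1 kb in both lists. With 4 genes, the count is too small to read against the 11.7% of all protein-coding genes in the Flag list.

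Complex III had a VCP summit at 0 of 10 genes and a Flag summit at 3 (30%), beside 2.34% and 11.7% of all protein-coding genes. UQCRC2, which encodes a core protein of the complex, had a Flag fold enrichment of 6.06, 17 reads (9.90 to 27.2) and -log10 q of 5.94. Its peak spanned 21953055 to 21953479 on chromosome 16, with the summit 210 bp upstream of the start. UQCR11, a small-subunit gene, had the most reads of the set, 19 (11.4 to 29.7), over a background of 4.08, which gave a fold enrichment of 3.94. Its summit lay 626 bp upstream of the start, the farthest upstream among these peaks. UQCRH, which encodes the hinge protein next to cytochrome c1, had 3.86 with 10 reads. That summit was nearer to LRRC41 (37 bp) than to UQCRH (119 bp). CYC1, the cytochrome c1 gene, UQCRC1 and the Rieske protein gene UQCRFS1 were unmarked.

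In complex IV, COX5A and COX8A were the marked genes, in both lists. They were 2 of 17 genes (11.8%) in each list, beside 2.34% (VCP) and 11.7% (Flag) of all protein-coding genes, so the Flag share was at the background. The complex IV genes include 6 for isoforms known from particular tissues such as muscle, lung or testis (COX4I2, COX6A2, COX6B2, COX7A1, COX7B2 and COX8C), and none of these had a summit in either list. Among the other 11 genes COX5A and COX8A had a summit of each list, and COX4I1, COX5B, COX6A1, COX6B1, COX6C, COX7A2, COX7A2L, COX7B and COX7C did not. These groups too were made after the values were seen, and 6 genes are too few to read against those background shares. COX7A2L had a Flag peak that the rule leaves out, because it lay inside the gene, 7607 bp from its outer end. That summit (fold enrichment 4.21, 11 reads, -log10 q 1.87) was 133 bp from an annotated inner start.

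Complex V had a VCP summit at 2 of 20 genes (10%) and a Flag summit at 4 (20%), beside 2.34% and 11.7% of all protein-coding genes. It was the one complex with genes in the VCP list alone. Over all protein-coding genes 42.2% of those with a VCP summit also had a Flag summit, so 2 genes are too few to read as a trait of the complex. ATP5PB and ATP5PD encode subunits of the peripheral stalk, which holds the catalytic head of the ATP synthase still against the rotor. ATP5PB had the highest VCP fold enrichment of the set, 4.38, with 11 reads (5.49 to 19.7) over a background of 1.74 and -log10 q of 1.13. Its peak spanned 111449659 to 111449860 on chromosome 1, with the summit 253 bp downstream of the start and 461 bp from an end of WDR77. The nearest Flag summit was 143369 bp away. ATP5PD had 3.61 with 11 reads over a background of 2.33, 186 bp downstream of its start on chromosome 17, and the nearest Flag summit was 12422 bp away. Both genes had 11 reads at a q above 0.05, and absence from the Flag list says that no peak passed its threshold there, not that the tagged protein was absent.

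The 4 complex V genes with a Flag summit had no VCP summit. Over all protein-coding genes 8.4% of those with a Flag summit also had a VCP summit, so 4 without one are not particular to this complex. ATP5MJ, which encodes a small membrane subunit, had the highest fold enrichment of the set in either list, 6.32, with 17 reads (9.90 to 27.2) and -log10 q of 6.30. It spanned 103921351 to 103921706 on chromosome 14, with the summit 55 bp upstream of the start, and 98.5% of the Flag peaks at ends of protein-coding genes had a lower fold enrichment. ATP5F1D, the gene of a central-stalk subunit, had 4.59 with 13 reads, 9 bp inside one end. ATP5MC3, one of the genes for the c-ring subunit of the rotor, had 2 weak Flag peaks, with 9 and 8 reads and fold enrichments of 3.51 and 3.16. ATP5PF encodes a further peripheral-stalk subunit and had 3.55 with 11 reads (5.49 to 19.7, -log10 q 1.21).

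The ATP5PF peak is shared with the gene of a factor that regulates this pathway. The summit lay 93 bp from an end of GABPA, the DNA-binding subunit of GABP, and 25 bp downstream of an annotated ATP5PF start, although 774 bp from the outer end of ATP5PF. The window around that start holds ETS matches at -180 to -174 and at -8 to -2 and a YY1 match at -207 to -200. The peak cannot be divided between the neighbours.

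**Figure D3:**
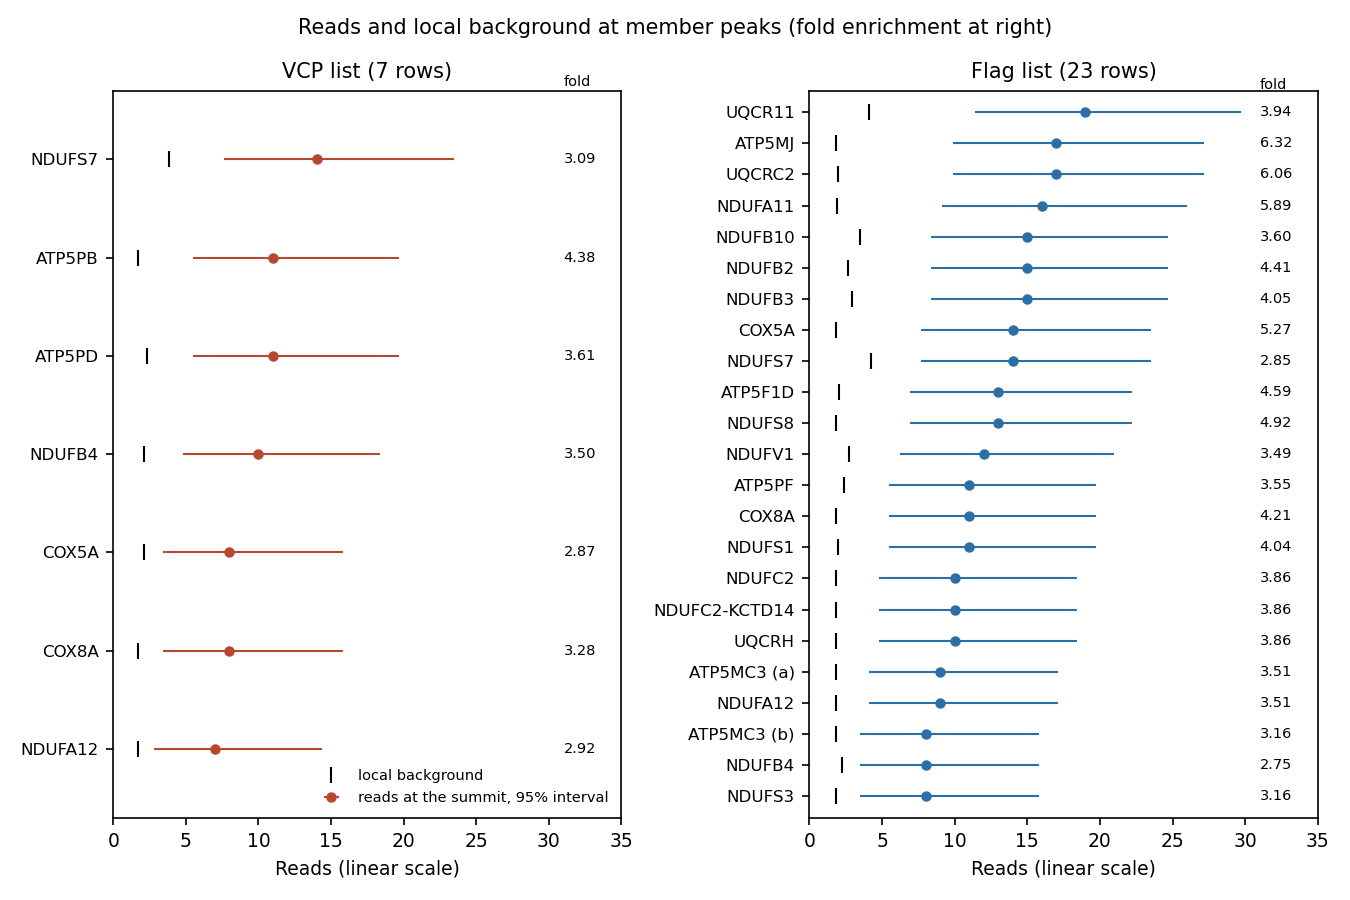
Points show reads at the summit with exact Poisson 95% intervals and ticks the local background, both in reads, for each gene and peak of either list, with fold enrichment at the right. The VCP peaks rest on 7 to 14 reads and the Flag peaks on 8 to 19, and a and b mark the ATP5MC3 peaks. Peaks were listed because their reads exceeded the background, so intervals above the ticks follow from that selection.

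Over the whole set, the 7 VCP peaks had a median fold enrichment of 3.28 (range 2.87 to 4.38), and all 395 VCP peaks at ends of protein-coding genes had a median of 3.61 (quartiles 3.23 and 4.01). The 22 distinct Flag peaks had a median of 3.90 (range 2.75 to 6.32), and all 2027 such Flag peaks had a median of 3.67 (quartiles 3.16 and 4.21). At these genes 54.5% of the Flag peaks had a q of at most 0.05, and so did 45.1% of all Flag peaks at gene ends. Of the 7 VCP peaks 57.1% overlapped a Flag peak, and of all VCP peaks at gene ends 32.4% did. In the Flag list 18.2% of the peaks at these genes and 6.27% of all at gene ends overlapped a VCP peak. With 4 overlapping peaks these shares describe the set and were not tested.

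The summits lay at gene starts. Strand was given by the promoter table for 70 of the 88 genes. All 7 VCP gene and peak pairs, and 18 of 19 Flag pairs with a strand, were nearer to the start than to the transcript end, and NDUFB10 was the other. Over all protein-coding genes 89.5% of VCP pairs and 93.5% of Flag pairs were at the start. The median distance of a summit from the gene end was 186 bp for the VCP pairs and 119 bp for the Flag pairs, against 185 and 193 bp over all protein-coding genes.

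A few genes lay just outside the rule. Within 3 kb, but beyond 1 kb, NDUFV2 had a Flag summit 2299 bp past its end (fold enrichment 5.12, 25 reads), which was 141 bp from ANKRD12, and ATP5F1B, the catalytic beta subunit gene, had one at 1182 bp (4.69, 16 reads). NDUFAB1, which encodes the acyl carrier protein that is part of complex I, is left out because no number follows NDUFA. It had a Flag peak 79 bp from one outer end, start or transcript end not told apart (4.55, 14 reads, -log10 q 2.98). A weak VCP peak overlapped that Flag peak (2.47, 11 reads, -log10 q 0.0545). A further VCP peak of NDUFAB1 lay 832 bp inside the other outer end (3.65, 9 reads). The complex IV gene once called NDUFA4 is listed as COXFA4 and had no peak in either list.

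Other genes of the pathway were counted the same way. Of 48 assembly factor genes, 3 had a VCP summit (6.25%) and 7 a Flag summit (14.6%), and none had both. The Flag peaks of NDUFAF4 (fold enrichment 4.92) and UQCC2 (4.41), which serve complexes I and III, had a -log10 q above 3. The VCP peak of COA1 had a fold enrichment of 4.38 and a -log10 q of 1.13. Of 16 genes for electron carriers and coenzyme Q synthesis, 0 had a VCP summit and 4 a Flag summit, led by the coenzyme Q enzyme gene COQ2 (9.70, 27 reads). Of 18 genes of the tricarboxylic acid cycle and pyruvate entry, 3 had a Flag summit, with SUCLG2 highest (5.20). Each of these counts can be read against 2.34% (VCP), 11.7% (Flag) and 0.987% (both) of all protein-coding genes.

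Regulators and factors of mitochondrial DNA expression had a VCP summit at 3 of 21 genes (14.3%) and a Flag summit at 6 (28.6%), beside 2.34% and 11.7% of all protein-coding genes. All 3 genes of the GABP subunits on that list, GABPA, GABPB1 and GABPB2, had a Flag summit, with fold enrichments of 3.55, 4.35 and 4.92. The GABPA peak is the one shared with ATP5PF, with a -log10 q of 1.21. GABPB2 also had an overlapping VCP peak (5.25). TFB2M, a mitochondrial transcription factor gene, had overlapping peaks of both lists (VCP 3.50, Flag 4.72), the VCP one with a -log10 q of 0.389. NRF1, YY1 and TFAM had none. Mitochondrial ribosomal protein genes had a VCP summit at 6 of 77 (7.79%) and a Flag summit at 15 (19.5%), and proteasome genes had a VCP summit at 1 of 40 (2.5%) and a Flag summit at 12 (30%). Both lists at once marked 2 of the 21 regulator genes (9.52%), and 0 of the mitochondrial ribosomal protein and proteasome genes, beside 0.987% of all protein-coding genes. No test was made between these lists and the subunit genes.

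The promoter windows of the subunit genes, at the outermost annotated start, were searched for the same letters. The NRF1 letters occurred in 13 of 70 windows (18.6%), against 4.28% of 15842 protein-coding promoters, the ETS letters in 28.6% against 14.2% and the YY1 letters in 15.7% against 3.86%. The SP letters (60% against 58.3%) and NF-Y letters (35.7% against 36.4%) occurred about as often in both. Between the subunit genes with and without a peak the shares were 14.3% and 20.4% for NRF1, 33.3% and 26.5% for ETS and 14.3% and 16.3% for YY1. These rest on 21 and 49 windows, and 3 of the 21 held the NRF1 letters. The median GC content was 62.3% with a peak and 60.3% without one, and 62.7% over all protein-coding promoters.

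**Figure D4:**
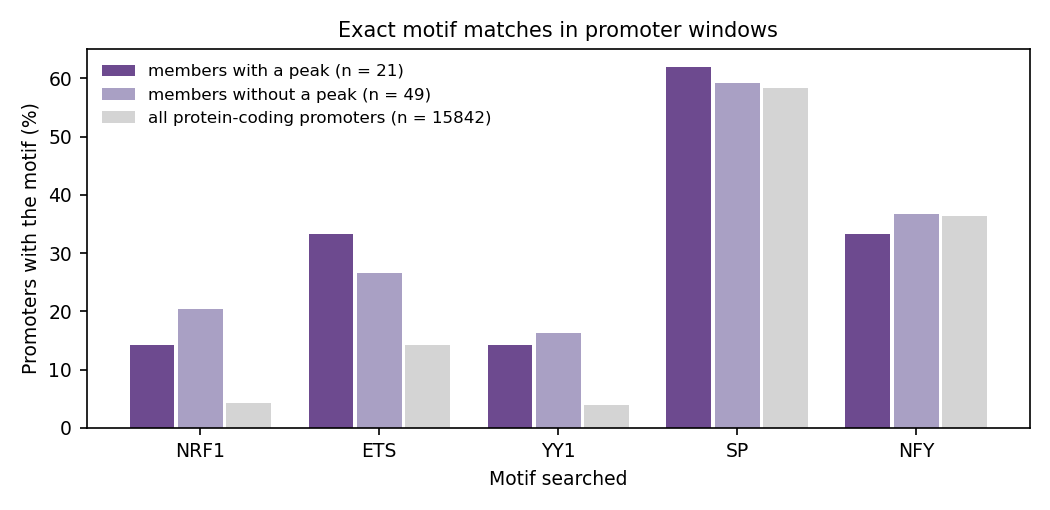
Bars give the percent of promoter windows with at least 1 exact match of each motif, for subunit genes with a peak in either list, subunit genes without one and all protein-coding promoters. NRF1, ETS and YY1 letters are more frequent in both groups of subunit genes than in all promoters, and SP and NF-Y letters are at similar shares.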

How the data were processed

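Chromatin immunoprecipitation libraries for VCP and Flag and an input library came from HCT116 cells expressing Flag-tagged VCP. The submitters' processing notes name Trimmomatic 0.33, Bowtie 1.1.2 and MACS2 2.1.0 with hg38, and no settings. The deposited peak lists, 1 per library, hold a fold enrichment (a ratio over the local background), -log10 p, -log10 q and a score per peak, all from the authors. That deposited score is -log10 p times 10 without decimals and was left unused. Reads at a summit were recovered as the whole number whose Poisson tail matched the deposited -log10 p, with a pseudocount of 1 read, and all 1816 and 5719 peaks matched within 0.001.

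Gene positions came from a RefSeq table of GRCh38.p14 (58961 rows on chromosomes, 19866 protein-coding). Strand, starts and promoters came from a RefSeq promoter table, which matched 70 of the 88 genes. Lists overlapped by at least 1 bp. Counts of genes have exact binomial intervals and no test, since each antibody has 1 library. The code (Python 3.11.15, SciPy 1.17.1) was tested on simulated data. The named genes are every gene with a summit within 1 kb. The alternatives changed the peak threshold, window, gene end, overlap rule and members. The genes and lists were chosen with earlier results of these data known. Some single genes are not reported here.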

Additional observations from a re-analysis of the deposited data

How the results depend on the processing

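The counts of genes with a VCP summit (7), a Flag summit (22) and both (5) stayed within 1.5 times under the 500 bp and 3 kb windows, at gene starts only, with each peak counted for its nearest gene end and without readthrough loci. The Flag count ranged from 18 to 24 in these, and the matching share of all protein-coding genes from 9.87% to 14.5%. The peak threshold moved them. At a q of at most 0.05 there were 0 genes with a VCP summit, 12 with a Flag summit and 0 with both, and at -log10 q of at least 3 there were 0, 7 and 0. Of the 4 overlapping VCP peaks, 4 remained with an overlap of 50% of both peaks, 2 had summits within 100 bp, and 0 were left at a q of at most 0.05 in both lists, where no VCP peak remained. With each peak counted for its nearest gene end, NDUFS3, UQCRH and ATP5PF dropped out, while NDUFC2 and NDUFC2-KCTD14, which share an end, both still counted. No paired analysis was possible because each antibody has 1 library, and for the same reason no replicate could be left out. Peaks resting on 7 to 19 reads limit what either list can show.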
